A study of Rattus norvegicus with 24 samples.

Results

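The constitutive proteasome genes of rat INS-1E cells, an insulin-secreting beta-cell line derived from an insulinoma, were followed across 8 groups of Affymetrix arrays. They were taken by gene symbol: every annotated gene whose symbol begins with Psma, Psmc, Psmd or Psmg followed by a digit, together with Psmb1 to Psmb7, Psme3, Psme4 and Psmf1. The rule found 40 of the 14217 genes that had a probe set of their own, and the rule uses symbols and no measured difference; where a gene had several probe sets, the one with the highest mean stood for it. Among the 40, Psmc3ip shares the symbol stem but encodes a partner protein of meiotic recombination and is not a proteasome subunit. The other 39 comprised 7 genes of the 20S alpha ring, 6 of the 20S beta ring, 17 of the 19S regulatory particle, 7 assembly chaperones, the activator Psme4 and the inhibitor Psmf1. Psmb6 and Psme3 were represented here by probe sets annotated to several genes and Psma8 by none with a symbol, so these 3 were not analysed.

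Cells were exposed for 6 or 12 h to a mixture of interleukin-1 beta (10 ng/ml), interferon gamma (50 ng/ml) and TNF alpha (25 ng/ml), or to no cytokines. Each of these arms contained the compound BRD0476 at 10 µM or DMSO, its vehicle. BRD0476 is a small molecule studied as a suppressor of cytokine-induced beta-cell death. Every group had 3 arrays (24 in all), and the labels name no separate cultures or days, so the p-values below measure the spread between arrays, which may be technical. Of 9 beta-cell markers 7 were measured, all above the median gene, and Ins1 was the brightest at a log2 intensity of 14.54. Gcg, the glucagon gene, was also high (10.14), but the other islet hormone genes Sst, Ppy and Ghrl were low (3.76, 4.19 and 3.92). The measured markers of leukocytes, fibroblasts, endothelium and exocrine pancreas all lay below the median gene. As a check of the treatment, the interferon targets Cxcl10 and Irf1 rose by 8.81 and 4.74 on the log2 scale with cytokines in DMSO at 6 h. Among arrays without cytokines, replicate 1 with BRD0476 at 6 h read 7.16 for Cxcl10, against 3.90 and 4.33 in its group. Its Irf1 was 8.62, against 7.90 and 8.23. The cause was not tested, and this array enters the 6 h comparisons that use BRD0476 alone.

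The 26S proteasome degrades proteins tagged with ubiquitin. Its 20S core is a barrel in which outer rings of alpha subunits (Psma genes) form the gate and inner rings of beta subunits (Psmb genes) hold the catalytic sites. A 19S particle caps the barrel: its base carries a ring of ATPases (Psmc genes) that unfold the substrate, and its lid includes the deubiquitinase Psmd14. Dedicated chaperones (Psmg1 to Psmg4 for the core, Psmd5, Psmd9 and Psmd10 for the base) assist assembly. Interferon gamma is known to induce the alternative catalytic subunits Psmb8, Psmb9 and Psmb10, which replace Psmb5, Psmb6 and Psmb7 in the immunoproteasome, and the PA28 cap made of Psme1 and Psme2. Beta cells make insulin in large amounts and depend on the proteasome for disposal of misfolded protein from the endoplasmic reticulum.

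Promoter sequences were examined for motifs of factors known to act on proteasome or cytokine-induced genes. RefSeq windows from 250 bases before to 50 bases after the annotated start (build GRCr8) matched 35 of the 39 proteasome genes, and Psma7 was among the 4 without one. The motifs, searched on both strands, were CCAAT, the NF-Y box; TGACNNNGC, the antioxidant response element bound by Nfe2l1 and Nfe2l2; and TTCNNNGAA, the STAT-type gamma-activated site. CCAAT was present in 18 of the 35 windows (51.4%), against 38% of 21842 protein-coding genes. It was present in 5 of 6 alpha-ring windows (83.3%), in 4 of 6 beta-ring windows (66.7%), in 3 of 7 chaperone windows (42.9%) and in 5 of 14 windows of 19S genes (35.7%). The alpha-ring window without it is that of Psma6, which had the largest alpha-ring rise at 6 h, and the window of Psmb3, which fell, holds it in 2 places. The antioxidant response element was found in 7 of 35 (20%, against 12.5% of coding genes) and the gamma-activated site in 3 of 35 (8.57%, against 8.32%). The sequences below are 60-base upstream stretches of 4 alpha-ring genes and of Psmb7 and Psmf1 with CCAAT or its reverse complement in capitals, of Psmb5 with TGACNNNGC in capitals, and of Psmc6 with TTCNNNGAA in capitals. Psmb3 is shown for its CCAAT boxes, and Psma6 and Psmd8, whose windows hold no CCAAT, are shown with no capitals. The set was picked to show windows with and without a motif and is no sample of the promoters. A match describes letters in the window and is not evidence that a factor was bound.
Psma1: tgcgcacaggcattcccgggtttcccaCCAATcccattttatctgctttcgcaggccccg
Psma2: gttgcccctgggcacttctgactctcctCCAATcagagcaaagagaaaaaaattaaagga
Psma3: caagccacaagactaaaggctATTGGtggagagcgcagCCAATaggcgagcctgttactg
Psma5: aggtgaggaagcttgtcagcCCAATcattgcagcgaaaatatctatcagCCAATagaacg
Psmb7: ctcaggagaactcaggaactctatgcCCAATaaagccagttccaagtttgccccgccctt
Psmf1: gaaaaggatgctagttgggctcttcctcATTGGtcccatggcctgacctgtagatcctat
Psmb5: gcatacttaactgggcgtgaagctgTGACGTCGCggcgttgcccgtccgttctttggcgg
Psmc6: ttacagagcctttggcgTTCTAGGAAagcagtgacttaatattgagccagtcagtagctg
Psmb3: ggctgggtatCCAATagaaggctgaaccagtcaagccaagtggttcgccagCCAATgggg
Psma6: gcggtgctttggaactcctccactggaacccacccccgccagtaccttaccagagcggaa
Psmd8: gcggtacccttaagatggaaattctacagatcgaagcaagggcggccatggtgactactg

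The stretches lie in GRCr8 at chr1:177887948-177888007 (minus strand) for Psma1, chr17:55260487-55260546 (minus) for Psma2, chr6:95219619-95219678 (plus) for Psma3 and chr2:198584415-198584474 (plus) for Psma5. Those of Psmb7 and Psmf1 lie on the minus strand at chr3:42827546-42827605 and chr3:160720976-160721035. The Psmb5 stretch is chr15:32047405-32047464 (minus) and that of Psmc6 is chr15:21022064-21022123 (plus). Those of Psmb3, Psma6 and Psmd8 lie at chr10:83193712-83193771 (plus), chr6:78514227-78514286 (plus) and chr1:93608750-93608809 (minus). All 11 lie upstream of the annotated start of their gene.

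All values are log2 intensities, and each difference is a difference of group means from limma with its standard error (SE) and a p-value adjusted by Benjamini-Hochberg over the 14217 genes. Differences with an adjusted p under 0.05 are named as calls, rises or falls. The proteasome genes were well expressed: all 40 lay above the median gene (7.27), with means over all arrays from 8.65 (Psmc3ip) to 13.21 (Psmb4). Their group means spanned a median of 0.45, against 0.51 over all genes. Within groups the arrays correlated at r between 0.992 and 0.998 across genes, and the median SE of a difference was 0.067 for these genes. Total RNA was measured from whole cultures, so loss of some cells and less RNA per cell cannot be told apart.

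Within their groups, 3 arrays stood apart from the others, and they were singled out after the data were seen. They were taken as 1 array from each of the 3 groups with the widest range on the axis described below. They were replicate 3 of the cytokine group in DMSO at 6 h, replicate 3 of the cytokine group in DMSO at 12 h, and replicate 1 of the cytokine group with BRD0476 at 12 h. On the main axis of variation within groups (32.8% of the within-group variance) they scored from −21.5 to −12.7, and the other arrays scored from −4.16 to 11.9. Averaged over the 3 groups, 133 of all genes were lower by 1 or more on the log2 scale in the arrays apart. By the same measure 0 were higher by as much. Of the 40 genes of the symbol rule, only Psmb7, the subunit with the trypsin-like active site, was among the 133. Adrm1, a ubiquitin receptor of the proteasome outside the 40, was also among them (lower by 1.25 on average). Psmb7 read 12.46, 12.70 and 11.29 in the cytokine group at 6 h in DMSO, 12.38, 12.57 and 11.22 at 12 h, and 11.44, 12.46 and 12.68 with BRD0476 and cytokines at 12 h. The low reading in each of these groups is the array that stands apart, and it lies close to the groups without cytokines, whose arrays ran from 10.79 to 11.37. Averaged over the 3 groups, the other 39 genes differed by at most 0.25 between the arrays apart and their companions. Of the 40, 5 differed by 0.2 or more. Gaps within a single group were wider for some genes. Companions minus the array apart, the gap was 0.40 for Psmg2 and 0.36 for Psmd3 in DMSO at 6 h. It was −0.37 for Psmd11 in DMSO at 12 h. Counts are therefore given below with and without these arrays. For Psmb7 the arrays left out are those with its low readings. A larger difference or a gained call for Psmb7 without them is therefore partly built in.

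**Figure D1:**
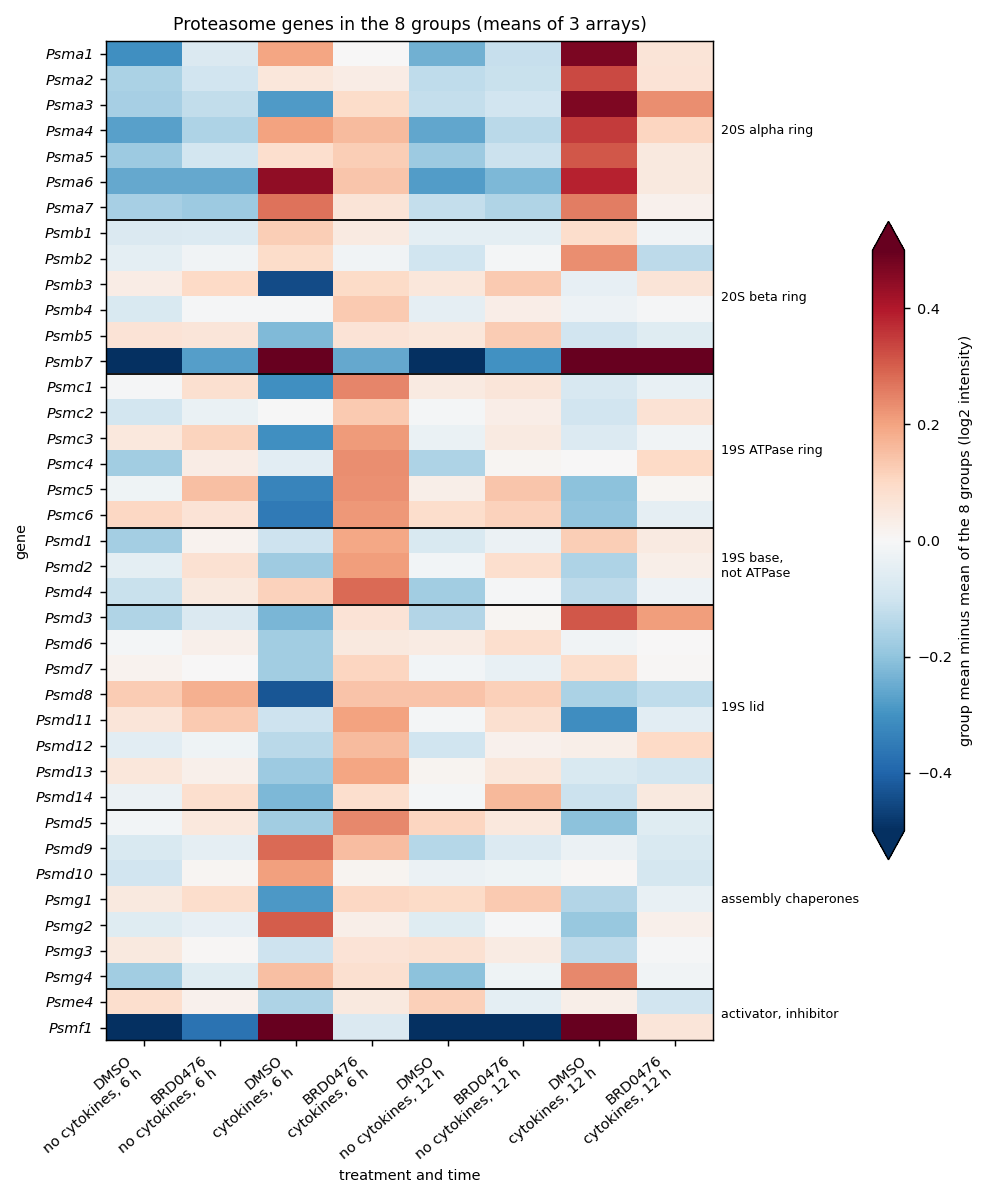
Each cell is the mean of 3 arrays for a gene (rows, ordered by role) in a treatment group (columns), minus that gene's mean over the 8 groups, in log2 intensity; colours saturate at 0.5, so the wider swings of Psmb7 and Psmf1 are shown at full colour. In the cytokine groups in DMSO the alpha-ring rows are mostly above their mean, and at 6 h many 19S rows are below it, whereas the group with BRD0476 and cytokines at 6 h is the highest for 15 of the 39 proteasome genes.

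The first question was what the cytokines did to these transcripts in cells without the compound. At 6 h 6 of 7 alpha-ring genes rose, 9 of 17 genes of the 19S particle fell and 1 rose, the beta ring (3 up and 2 down of 6) and the chaperones (4 up and 1 down of 7) moved both ways, and the inhibitor Psmf1 had the largest rise. Of the 40 genes 15 rose and 13 fell, against a background of 51.7% of all genes called (24.3% up and 27.4% down). The arrays of the groups did not overlap for 28 of the 40, against 53.3% of all genes. The median difference was −0.03, against 0.00 over all genes. Of the 40, 20 differences were above zero and 20 below, so the set had no common direction.

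Among the alpha-ring genes 6 of 7 rose and 0 fell, with a median difference of 0.43. Psma6 read 12.07, 12.04 and 11.99 without cytokines and 12.78, 12.66 and 12.76 with them, so every treated array lay above every control array. The rise was 0.70 ± 0.06 (SE, n = 3 against 3), a 1.62-fold difference (limma, adjusted p = 2.85e-09). Psma1, one of the genes with an upstream CCAAT shown above, read 11.72, 11.31 and 11.73 without cytokines and 12.01, 12.11 and 12.14 with them. One control array was low, and the groups still did not overlap (difference 0.50 ± 0.09, limma adjusted p = 7.59e-05). That array, replicate 2 of the DMSO controls, got the lowest weight of the 24 when arrays were weighted (0.3176). The 3 arrays that stand apart got 0.3178, 0.3218 and 0.4674. Psma4 rose by 0.47, Psma7 by 0.43, Psma5 by 0.26 and Psma2 by 0.21. The gene that was not called, Psma3, differed by −0.12, but its probe sets disagree. A brighter probe set annotated to both Psma3 and Psma3l (mean 11.62, against 9.02) rose by 0.32 (limma adjusted p = 8.51e-05). That probe set was examined after its values were seen.

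The beta ring moved in both directions, with 3 genes up and 2 down of 6. Psmb7 rose by 1.24 ± 0.33 in the mean, a 2.36-fold difference (limma adjusted p = 0.00323). Its size depended on the arrays: it was 1.67 without the 3 arrays that stand apart and 0.38 without their 6 companions. Psmb1 and Psmb2, structural beta subunits, rose by 0.19 and 0.14. Psmb3, another structural subunit, read 12.33, 12.34 and 12.31 without cytokines and 11.93, 11.76 and 11.84 with them, so the groups were well separated and cytokines gave the lower values (fall of 0.48 on the log2 scale, SE 0.05, limma adjusted p = 1.16e-07). Psmb5, which carries the chymotrypsin-like site, fell by 0.29 ± 0.06, from 12.25, 12.34 and 12.18 to 11.96, 11.89 and 12.05. Psmb4 was not called (0.07).

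Of the 17 genes of the 19S particle 1 rose and 9 fell, with a median of −0.16. Among the ATPases 4 of 6 fell: Psmc6 fell by 0.46, Psmc3 by 0.36, Psmc5 by 0.31 and Psmc1 by 0.30, whereas Psmc2 (0.09) and Psmc4 (0.12) were not called. Psmc6 has further probe sets, which fell by 0.76 and by 0.96. In the lid 5 of 8 fell. Psmd8, a lid subunit, read 11.19, 11.15 and 11.31 without cytokines and 10.56, 10.58 and 10.84 with them. The treated arrays were all lower than the controls (fall of 0.56 on the log2 scale, SE 0.08, limma adjusted p = 5.89e-06), and the highest of them was the array that stands apart. Psmd13, Psmd7 and Psmd6 fell by 0.24, 0.19 and 0.16. The deubiquitinase gene Psmd14 fell by 0.19, but its groups overlapped, leaving out any 1 of 4 arrays ended the call (−0.18 to −0.15), and its second brightest probe set differed by 0.13 in the other direction without being called. The one 19S gene that rose was Psmd4, which encodes a ubiquitin receptor (0.23). Without replicate 2 of the DMSO controls it differed by 0.15, and without replicate 3 of the cytokine group, the array that stands apart, by 0.14; neither was called. Without the 3 arrays that stand apart 0 of the 17 rose and 11 fell; without their 6 companions 1 rose and 6 fell.

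Psmf1, which encodes the proteasome inhibitor PI31, had the largest change of the set. It read 10.24, 10.24 and 10.28 without cytokines and 11.97, 11.91 and 11.74 with them. The treated arrays stood far above the controls, a rise of 1.62 ± 0.07 or 3.08-fold (limma adjusted p = 3.29e-14), and the rise was 1.48 without the 6 companion arrays. The activator gene Psme4 fell by 0.24. Of the 7 chaperone genes 4 rose (Psmd9 by 0.36, Psmg2 by 0.36, Psmg4 by 0.33 and Psmd10 by 0.30) and Psmg1 fell by 0.34. Psmd5 (−0.16) and Psmg3 (−0.15) were not called.

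After 12 h of cytokines in DMSO the alpha ring was higher throughout. In all 13 of the 40 genes rose and 8 fell, against 45.9% of all genes called (16% up and 29.9% down). The groups did not overlap for 28 of the 40, against 53.1% of all genes. All 7 alpha-ring genes rose, by 0.38 (Psma7) to 0.71 (Psma1), with a median of 0.58, and in none did the arrays of the groups overlap. Psma1 read 11.75, 11.64 and 11.57 without cytokines and 12.21, 12.47 and 12.41 with them. Psma3 read 8.82, 8.96 and 8.94 without cytokines and 9.46, 9.59 and 9.42 with them, and here both its probe set (0.58) and the shared one (0.38) rose. The count of 7 was the same without the 3 arrays that stand apart and without their 6 companions.

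Psmf1 was still high at 12 h, at 10.24, 10.10 and 10.10 without cytokines and 11.66, 11.77 and 11.55 with them. All treated arrays were again above the controls (rise of 1.51 ± 0.07, limma adjusted p = 1.28e-13). Psmb7 rose by 1.10 ± 0.33 (limma adjusted p = 0.0093), a difference that was 1.52 without the 3 arrays that stand apart and 0.26, not called, without their 6 companions. Without replicate 2 of the cytokine group alone it was 0.84 and not called. Psmb2 rose by 0.33, the chaperone gene Psmg4 by 0.45 and the lid gene Psmd3 by 0.46. Among 19S genes 2 of 17 rose (Psmd3, and Psmc4 by 0.16) and 4 fell: Psmd8 by 0.30, Psmd11 by 0.30, Psmc6 by 0.28 and Psmc5 by 0.23. Psmc6 was not called without replicate 1 of either group (−0.25 without the control array, −0.23 without the cytokine array), nor Psmd11 without replicate 2 of the cytokine group (−0.23). Without the 6 companions of the arrays apart 1 of the 17 fell. The chaperone genes Psmd5, Psmg1 and Psmg3 fell by 0.31, 0.24 and 0.21, and Psmc3ip, which is no subunit, by 0.32. Psmb5 (−0.15), Psmd14 (−0.10), Psmd4 (0.04), Psmd9 (0.11), Psmd10 (0.04) and Psme4 (−0.09) were not called.

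**Figure D2:**
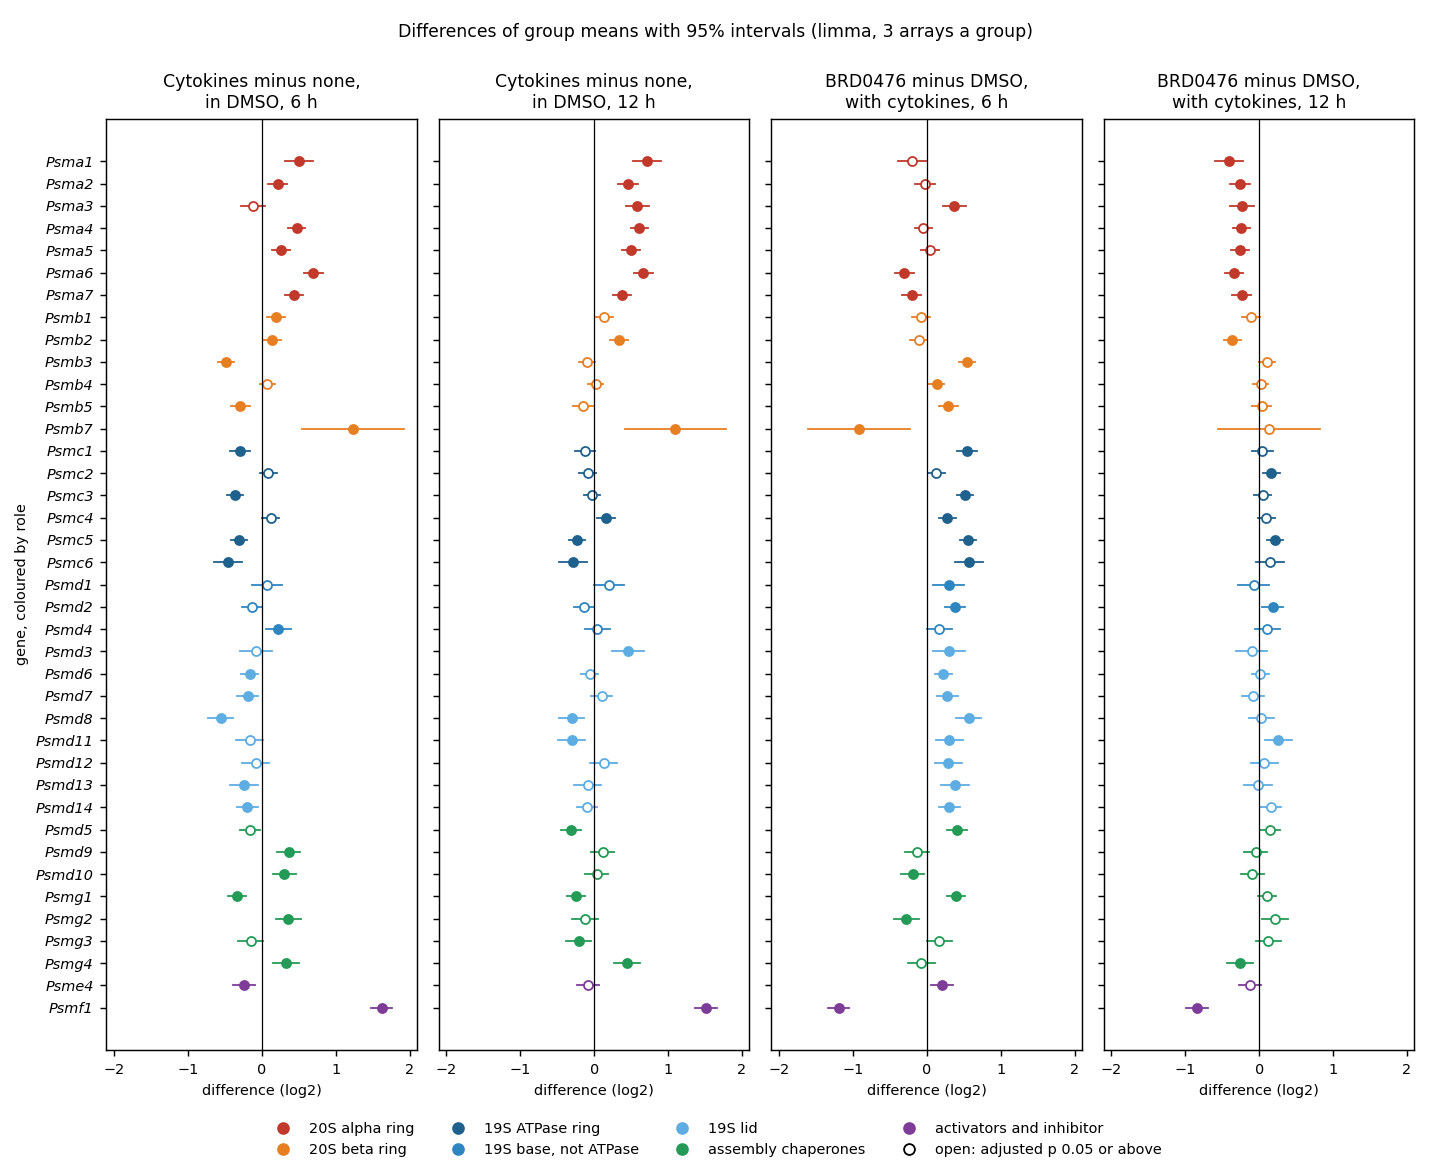
Points are differences of group means in log2 intensity for each of 39 genes, with 95% intervals (3 arrays a group); filled points have an adjusted p under 0.05 and colours mark the role. The alpha-ring points lie to the right in both cytokine panels apart from Psma3 at 6 h, and to the left with BRD0476 at 12 h; the 19S points lie to the right with BRD0476 at 6 h, and Psmb7 has the widest interval.

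The change between the times was tested as a difference of the cytokine effects at 12 h and at 6 h, using the controls of each time. It was called for 9 of the 40 genes (7 up and 2 down), against 28.8% of all genes (11.8% up and 16.9% down). The cytokine effect was higher at 12 h by 0.70 for Psma3, by 0.54 for Psmd3, by 0.38 for Psmb3, by 0.33 for Psmc3, by 0.29 for Psmd7, by 0.24 for Psma2 and by 0.23 for Psma5. For Psma3 the shared probe set gave 0.06, which was not called. The effect was lower at 12 h by 0.49 for Psmg2, whose arrays with cytokines at 6 h read 9.67, 9.63 and, on the array that stands apart, 9.25, and by 0.34 for Psmc3ip. Without cytokines, 0 of the 40 genes were called between 12 and 6 h in DMSO (limma; 1 had an unadjusted p under 0.05), against 1.67% of all genes (0.464% up and 1.21% down). Arrays at the 2 times did not overlap for 5 of the 40, against 19.3% of all genes.

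BRD0476 alone gave few calls. Without cytokines at 6 h 1 of the 40 genes was called, against 3.53% of all genes (1.68% up and 1.85% down), and the arrays did not overlap for 12 of the 40, against 20.5% of all genes. The called gene was the ATPase gene Psmc4, which read 11.20, 11.11 and 11.22 in DMSO and 11.40, 11.45 and 11.31 with the compound. Every array with the compound was higher, and the rise was 0.21 ± 0.06 (limma adjusted p = 0.0457), though leaving out any 1 of 5 of these 6 arrays ended the call (0.17 to 0.23). At 12 h 0 were called by limma (7 had an unadjusted p under 0.05, and 17.5% of these genes against 15.8% of all genes did so; 1 was called with an intensity trend and 6 with array weights), against 4.66% of all genes called (2.02% up and 2.64% down). At 12 h the arrays did not overlap for 17 of the 40, against 30.1% of all genes. Psmf1 differed by 0.13 at 6 h and 0.09 at 12 h, and neither was called.

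The next question was how the cytokine response looked in cells that also received BRD0476. At 6 h 11 genes rose and 0 fell, against 20.9% of all genes called (10.3% up and 10.7% down). The arrays did not overlap for 21 of the 40, against 38.4% of all genes. The risers were 5 of 7 alpha-ring genes (Psma6 by 0.40, Psma4 by 0.31, Psma7 by 0.25, Psma3 by 0.22 and Psma5 by 0.21), Psmf1 by 0.30, Psmd4 by 0.23, Psmc4 and Psmd5 each by 0.19, Psmc2 by 0.16 and Psmb4 by 0.14. None of the 17 genes of the 19S particle fell. Psmf1 read 10.35, 10.34 and 10.47 with BRD0476 alone and 10.69, 10.66 and 10.70 with BRD0476 and cytokines, so it was higher on every treated array by a margin smaller than in DMSO. Psmb7 differed by 0.02. The count of 11 became 6 or 7 without any 1 of the 6 arrays compared, and the calls of Psmd4 (0.19 to 0.26) and Psmd5 (0.15 to 0.22) were among those lost.

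At 12 h with BRD0476, 7 genes rose with cytokines and 4 fell, against 27.7% of all genes called (9.19% up and 18.5% down). The arrays did not overlap for 20 of the 40, against 41.1% of all genes. Psmb7 rose by 1.01 (0.25, not called, without the 6 companions of the arrays apart) and Psmf1 by 0.58. Among alpha-ring genes 5 of 7 rose: Psma3 by 0.33, Psma6 by 0.27, Psma4 by 0.24, Psma2 by 0.18 and Psma7 by 0.17. Without the 3 arrays that stand apart 6 of the 7 rose, and 32.5% of the 40 genes were called, against 35% of all genes. Leaving out the 6 companions leaves 1 array in the group with BRD0476 and cytokines. The median alpha-ring difference was then 0.15, against 0.18 with all arrays. Psmc3ip fell by 0.28, Psmd8 by 0.25, Psmb5 by 0.19 and Psmg1 by 0.17. The calls of Psmb7 (lowest value 0.77), Psma2 (0.14 to 0.19), Psmd8 (−0.25 to −0.20), Psmb5 (−0.20 to −0.17) and Psmg1 (−0.18 to −0.16) were each lost without any 1 of 4 or 5 arrays. The count of 11 genes became 5 without replicate 1 of the group with BRD0476 alone or replicate 2 of the group with both, 7 without replicate 2 of the former and 6 without replicate 3 of the latter.

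**Figure D3:**
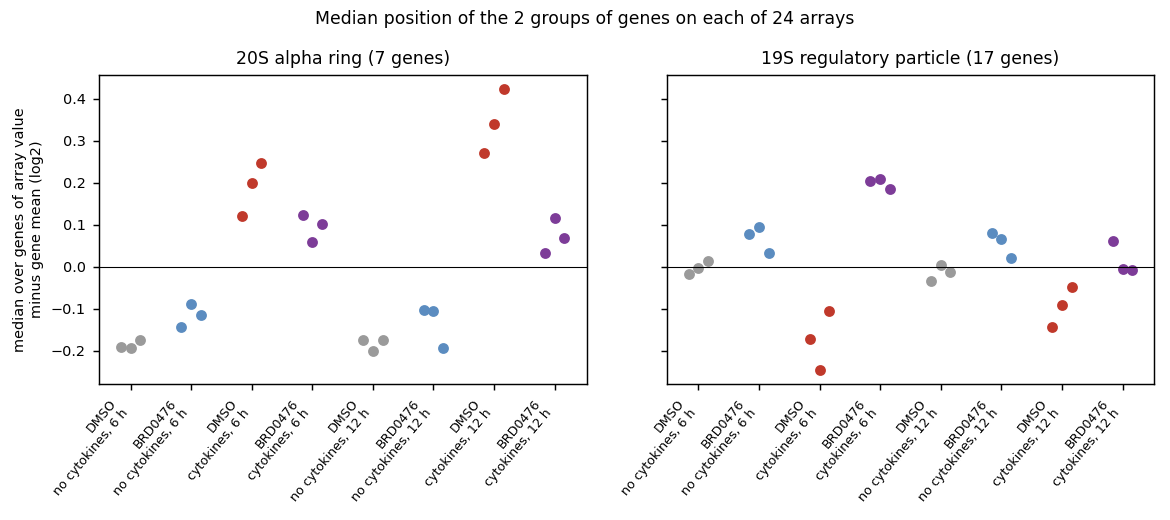
Each point is an array: the median, over the 7 alpha-ring genes (left) or the 17 genes of the 19S particle (right), of the array's log2 intensity minus the gene's mean over 24 arrays. Alpha-ring medians run from 0.12 to 0.42 in the cytokine arrays in DMSO and from −0.20 to −0.17 in their controls; 19S medians run from −0.25 to −0.10 with cytokines in DMSO at 6 h and from 0.18 to 0.21 when BRD0476 was added.

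Within cytokine-treated cells the compound was compared with DMSO directly. At 6 h the 19S particle had the clearest pattern: 15 of its 17 genes were higher with BRD0476 and 0 were lower, with a median of 0.31. Over the whole set 22 genes rose and 6 fell, against 44% of all genes called (24.7% up and 19.4% down), and the arrays did not overlap for 31 of the 40, against 50.2% of all genes. The count of 19S genes that rose was 15 without the 3 arrays that stand apart and 10 without their 6 companions. This comparison uses the same cytokine arrays in DMSO as the first one, in which many of these genes were low, so the signs of both comparisons are not independent.

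All 8 lid genes rose, by 0.22 (Psmd6) to 0.57 (Psmd8). Psmd8 read 10.56, 10.58 and 10.84 with cytokines in DMSO and 11.25, 11.21 and 11.24 with cytokines and BRD0476. No arrays overlapped (0.57 ± 0.08, limma adjusted p = 6.25e-06), and the arrays with the compound lay within the range of the groups without cytokines. Psmd14 rose by 0.31. Of the ATPase genes 5 of 6 rose. Psmc5 read 10.91, 10.90 and 10.99 in DMSO and 11.54, 11.46 and 11.47 with BRD0476, a separation of 0.56 ± 0.05 (limma adjusted p = 1.95e-08). Psmc6 rose by 0.57, Psmc1 by 0.55, Psmc3 by 0.52 and Psmc4 by 0.28, and Psmc2 was not called (0.13). Of the base scaffold genes Psmd2 rose by 0.39 and Psmd1 by 0.30. Psmd4 was not called (0.17), and without the 3 arrays that stand apart it was (0.25).

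Outside the 19S particle, Psmb3 rose by 0.54 ± 0.05: its arrays in DMSO with cytokines (11.93, 11.76 and 11.84) were the lowest of all groups, and those with the compound read 12.42, 12.39 and 12.36. Psmb5 rose by 0.29 and Psmb4 by 0.14, and the chaperone genes Psmd5 and Psmg1 by 0.41 and 0.39. Psme4 rose by 0.20, a call that was lost without any 1 of 4 arrays (0.16 to 0.20). Psmd9 was not called (−0.13). Psma3 rose by 0.38 by its own probe set, whereas the shared probe set fell by 0.16 (limma adjusted p = 0.0271), so the direction for Psma3 in this comparison is not settled.

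The genes that fell with BRD0476 at 6 h were among those that cytokines had raised. Both comparisons use the same cytokine arrays in DMSO, with opposite sign, so this overlap is partly built in. Psmf1 fell by 1.19 ± 0.07 (2.28-fold, limma adjusted p = 1.51e-11), with no overlap between 11.97, 11.91 and 11.74 in DMSO and 10.69, 10.66 and 10.70 with the compound. Psmb7 fell by 0.92 (limma adjusted p = 0.0283), a difference of −1.35 without the 3 arrays that stand apart and of −0.06 without their 6 companions. Leaving out any 1 of the other 5 arrays of this comparison also ended that call (−0.94 to −0.64). Psma6 fell by 0.30, Psmg2 by 0.27, Psma7 by 0.21 and Psmd10 by 0.19. Psma6 read 12.43, 12.43 and 12.42 with the compound, below every cytokine array in DMSO and above every array without cytokines. Psma7 was not called without replicate 3 of the cytokine group in DMSO (−0.15). Psmd10 was not called without any 1 of 5 arrays (−0.20 to −0.14).

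**Figure D4:**
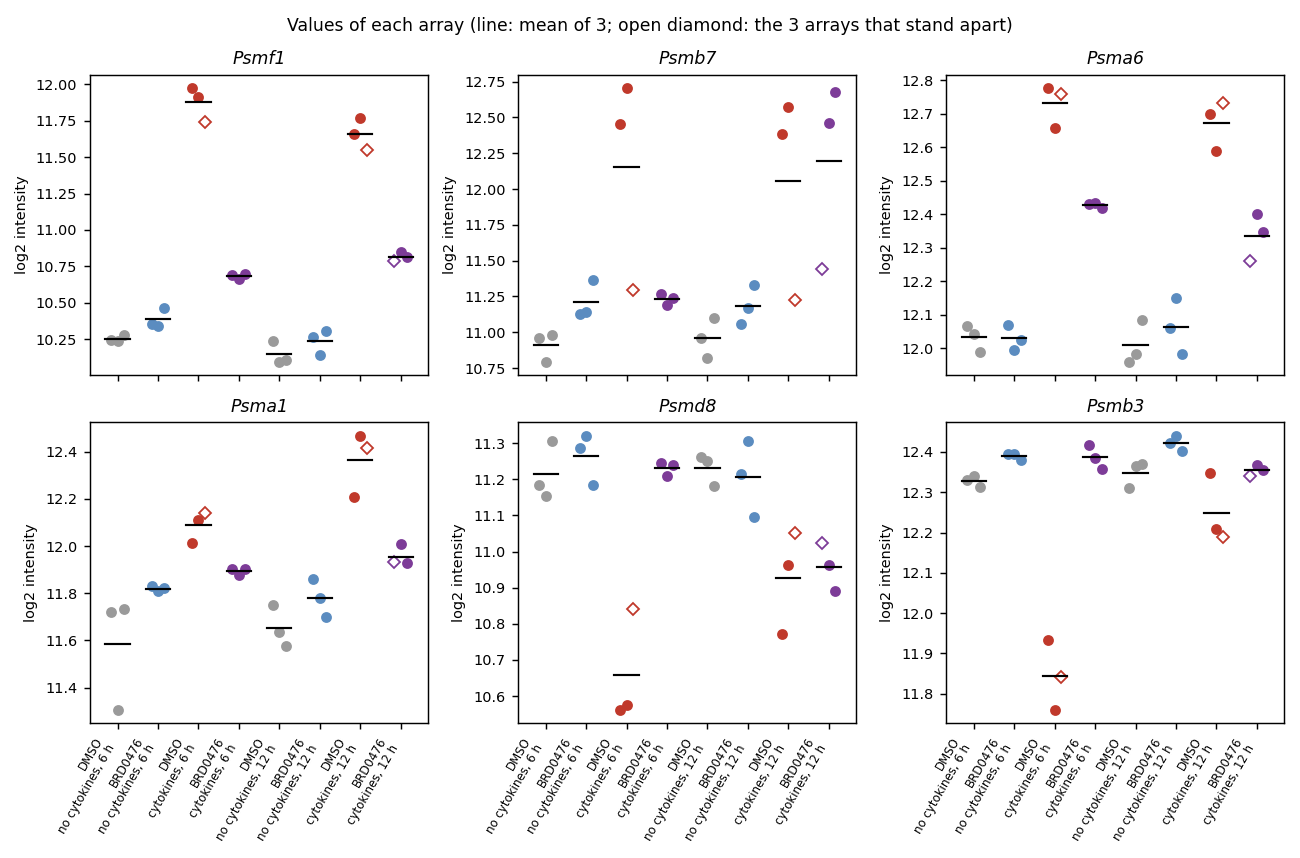
Log2 intensity of 6 genes on each of 24 arrays by treatment group (points, with the mean of 3 as a line); open diamonds are the 3 arrays that stand apart. Psmf1 is high in both cytokine groups in DMSO and intermediate when BRD0476 is present, Psmb7 splits within 3 groups along the arrays that stand apart, and Psmd8 and Psmb3 are lowest with cytokines in DMSO at 6 h.

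At 12 h the alpha ring was lower with BRD0476. In cytokine-treated cells 5 genes were higher with the compound and 10 lower, against 26.9% of all genes called (16.3% up and 10.6% down). The arrays did not overlap for 17 of the 40, against 35.3% of all genes. All 7 alpha-ring genes were lower, by 0.23 (Psma3) to 0.41 (Psma1), and the arrays overlapped for none of them. Psma1 read 12.21, 12.47 and 12.41 in DMSO and 11.93, 12.01 and 11.93 with BRD0476 (limma adjusted p = 0.00169). Psma6 fell by 0.34, Psma2 and Psma5 by 0.26 each, and Psma4 and Psma7 by 0.24 each. The count of 7 became 2 when the 6 arrays compared were fitted alone (4 in place of 15 over the whole set). It became 4 without the 3 arrays that stand apart, where 20% of the 40 genes were called, against 23.9% of all genes. Without their 6 companions the median alpha-ring difference was −0.38, against −0.26 with all arrays. Psmf1 fell by 0.84 ± 0.07 (limma adjusted p = 5.77e-09): its arrays read 11.66, 11.77 and 11.55 in DMSO and 10.79, 10.85 and 10.82 with BRD0476. Psmb2 fell by 0.36 and Psmg4 by 0.26.

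Of the 19S genes 4 of 17 were higher with BRD0476 at 12 h: Psmd11 by 0.26, with overlapping arrays, Psmc5 by 0.21, Psmd2 by 0.18 and Psmc2 by 0.17. Psmc3ip was also higher, by 0.21. Psmd2 was not called without the arrays that stand apart (0.09) or without any 1 of 4 arrays (0.12 to 0.19), nor was Psmc2 without any 1 of 5 (0.16 to 0.17) or Psmc3ip without any 1 of 3 (0.13 to 0.21). Psmb7 differed by 0.14, and was high and low within both groups along the arrays that stand apart. The panel genes Psmb5 (0.03), Psmd14 (0.16), Psmd4 (0.11), Psmd5 (0.14), Psmd9 (−0.05), Psmd10 (−0.09) and Psme4 (−0.13) were not called.

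Whether the compound changed the cytokine response itself was tested with the interaction term, which compares the cytokine effect with BRD0476 against that in DMSO. At 6 h it was called for 18 of the 40 genes, 14 positive and 4 negative, against 33.2% of all genes (18.8% up and 14.4% down). Positive values mean a cytokine effect that was higher with the compound. They were largest for Psmc6 (0.60 ± 0.13), Psmd8 (0.52), Psmb3 (0.48) and Psmc1 (0.46), and 8 of the 17 genes of the 19S particle were called, 5 of them without replicate 2 of the cytokine group in DMSO. Negative values were found for Psmf1 (−1.32 ± 0.10), Psma1 (−0.43), Psma6 (−0.30) and Psmd10 (−0.30), the last of which was lost without any 1 of 6 arrays (−0.30 to −0.22). The interaction for Psmb7 was −1.22 and was not called. Without the 3 arrays that stand apart, and so without a low Psmb7 reading, it was −1.65 and was called. Without the 6 companions it was −0.36, not called.

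At 12 h the interaction was called for 8 genes, all negative, against 15.3% of all genes (8.38% up and 6.89% down). They were Psmf1 (−0.94), Psma1 (−0.53), Psmb2 (−0.45), Psmg4 (−0.44), Psma6 (−0.39), Psma4 (−0.37), Psma5 (−0.34) and Psma2 (−0.28), so 5 were alpha-ring genes. Of the 17 genes of the 19S particle 0 were called at 12 h by limma, and 0 had an unadjusted p under 0.05. Without the 3 arrays that stand apart 1 gene was called positive and 7 negative. The positive one belonged to the 19S particle, and 4 of the negative ones to the alpha ring. These calls made up 20% of the 40 genes, against 15.8% of all genes. The difference between the BRD0476 effects at 12 and 6 h in cytokine-treated cells, a test of its own, was called for 18 genes, 2 up and 16 down, against 25% of all genes (11.9% up and 13.2% down). It was lowest for Psma3 (−0.61, and −0.11 by the shared probe set), Psmd8 (−0.54), Psmc1 (−0.51) and Psmc3 (−0.47), and the positive calls were Psmg2 (0.49) and Psmf1 (0.35). Psmb7 had a higher value, 1.06 ± 0.47, which was not called; it was 1.44 and called without the 3 arrays that stand apart, and 0.28, not called, without their 6 companions. Among 19S genes 8 of 17 were called, all lower at 12 h. Without the 3 arrays that stand apart 19 of the 40 genes (47.5%) were called, against 28.1% of all genes. Without replicate 2 of the cytokine group in DMSO at 6 h 11 were called. Leaving out the 6 companions leaves 1 array in each of those groups. The median difference over the 40 genes was then −0.17, against −0.21 with all arrays.

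The alternative subunits moved far more than the constitutive ones. Psmb8, Psmb9, Psmb10, Psme1 and Psme2 rose by 1.96 to 4.72 with cytokines in DMSO at 6 h, all 5 called, and by 1.60 to 4.18 at 12 h. With BRD0476 and cytokines all 5 were lower than with DMSO and cytokines, by 0.70 to 1.60 at 6 h. Thus Psmb8 rose by 4.72 where its constitutive counterpart Psmb5 fell by 0.29, and Psmb10 by 3.17 where Psmb7 rose by 1.24. Between the arrays that stand apart and their companions these 5 genes differed on average by −0.13 (Psmb10) to 0.16 (Psme1), where Psmb7 differed by 1.22. In a single group their gaps ran from −0.22 (Psmb10) to 0.23 (Psme1).

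Of 31 further genes of the ubiquitin and proteasome pathway 25 were measured, and 10 rose and 7 fell with cytokines in DMSO at 6 h (68%, against 51.7% of all genes). Zfand2a, a proteasome-associated stress protein, rose by 1.96, Nfe2l1, a transcription factor for proteasome genes, by 1.11, and Fbxo7, which binds the PI31 protein, by 1.01. Adrm1, a 19S ubiquitin receptor, and Uba1, the main ubiquitin-activating enzyme, rose by 1.11 and 1.17. Like Psmb7 they were lower in the arrays that stand apart (on average by 1.25 and 1.41). Ddi2, the protease that activates Nfe2l1, fell by 0.53, and the ubiquitin shuttle Ubqln1 and the proteasome-binding Zfand5 fell by 0.45 each. The ubiquitin ligase gene Ube3c fell by 0.37. With BRD0476 in cytokine-treated cells at 6 h 10 of the 25 rose and 7 fell (68%, against 44% of all genes called). The largest falls were Uba1 (−1.02, with overlapping arrays), Adrm1 (−0.90), Zfand2a (−0.90) and the heat shock factor gene Hsf1 (−0.65). Hsf1 read 8.50, 8.50 and, on the array that stands apart, 7.98 with cytokines in DMSO, against 7.73, 7.64 and 7.66 with cytokines and BRD0476. The largest rises were Ubqln1 (0.46), the segregase gene Vcp (0.31), its cofactor Nploc4 (0.30) and Ddi2 (0.28). Fbxo7 and Nfe2l1, followed after their values were seen, fell by 0.60 and 0.49.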

How the data were processed

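RNA from 24 samples of INS-1E cells (8 groups of 3) was hybridised to Affymetrix rat arrays. The deposited values are intensities on a linear scale for 31099 probe sets, made by the authors with RMA, per the submitters' processing notes; the version is not given in the sources used here. RMA fits all arrays jointly and compresses small differences, and an array gives no read depth, so the number of arrays limits the precision. The log2 of each intensity was taken, 57 control probe sets were left out, and the probe set with the highest mean stood for each of 14217 genes, named from GEO's platform annotation (20832 probe sets had 1 symbol, 436 several and 9831 none). The 8 group means were fitted to all arrays with limma 3.58.1 in R 4.3.3 (16 residual degrees of freedom), with 13 comparisons, each adjusted over all genes by Benjamini-Hochberg. The script was tested on simulated data.

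The members and lists were chosen with earlier results of these data known. Genes were named by a rule: in each treatment comparison up to 6 rises and 6 falls among called genes whose arrays did not overlap, in interactions and time comparisons up to 4 in each direction, and a panel of subunits in all. Others were named after their values were seen. The marker lists (beta cell, other endocrine, leukocyte, fibroblast, endothelium, exocrine) served to check the cell type. Alternatives were leaving out each array, fitting the compared arrays alone, a replicate block, an intensity trend, array weights, averaging the probe sets of each gene, leaving out dim genes, median centring, quantile normalization and, added after the data were seen, leaving out the 3 arrays that stand apart, leaving out their 6 companions (each such group then has 1 array, assumed to vary like the rest), and the shared Psma3 probe set. Replicate numbers did not pair arrays: same-numbered deviations correlated at −0.46 to 0.364, above 0.1 in 8 of 24 pairs.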

Additional observations from a re-analysis of the deposited data

Results flagged for a closer look

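For 24 results a test of the difference itself showed that the same contrast gave different effects in different settings. They are the largest called differences, up to 4 in each direction of each test. The interactions at 6 and 12 h called 45% and 20% of the 40 genes, against 33.2% and 15.3% of all genes. The changes with time of the cytokine and BRD0476 effects called 22.5% and 45%, against 28.8% and 25% of all genes. The cytokine effect differed between BRD0476 and DMSO at 6 h, being higher with the compound for Psmc6 (0.60), Psmd8 (0.52), Psmb3 (0.48) and Psmc1 (0.46) and lower for Psmf1 (−1.32), Psma1 (−0.43), Psma6 (−0.30) and Psmd10 (−0.30). At 12 h it was lower with the compound for Psmf1 (−0.94), Psma1 (−0.53), Psmb2 (−0.45) and Psmg4 (−0.44). The cytokine effect in DMSO was higher at 12 h than at 6 h for Psma3 (0.70), Psmd3 (0.54), Psmb3 (0.38) and Psmc3 (0.33) and lower for Psmg2 (−0.49) and Psmc3ip (−0.34). In cytokine-treated cells the effect of BRD0476 was higher at 12 h for Psmg2 (0.49) and Psmf1 (0.35) and lower for Psma3 (−0.61), Psmd8 (−0.54), Psmc1 (−0.51) and Psmc3 (−0.47). Both values for Psma3 were near zero by its shared probe set (0.06 and −0.11), where they were not called. Without the 6 companions of the arrays that stand apart 7 of the 24 were not called: Psmd10 in the 6 h interaction (−0.28), Psmg2 for the cytokine effect (−0.33), and for the BRD0476 effect Psmg2 (0.28), Psmf1 (0.29), Psma3 (−0.50), Psmd8 (−0.42) and Psmc1 (−0.44). Without the 3 arrays themselves all 24 were called.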

How the results depend on the processing

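Over 3218 values of these genes recomputed under the alternatives, 2960 kept their direction and their side of the threshold, 213 lost their call, 45 gained one and 0 changed sign with a call. Where replicate numbers were used as a replicate block, the genes called with cytokines in BRD0476 at 6 h fell from 11 to 7 and those with BRD0476 alone at 6 h from 1 to 0; no other count of called genes changed by over 1.5 times. Fitting the compared arrays alone called 18 in place of 28 genes with cytokines in DMSO at 6 h (5 in place of 9 of the 19S genes that fell), 6 with cytokines in BRD0476 at 6 h and 5 in place of 11 at 12 h, 0 with BRD0476 alone at 6 h, 4 in place of 15 with BRD0476 and cytokines at 12 h (2 in place of 7 alpha-ring genes), and 11 in place of 18 for the change of the BRD0476 effect with time. Centring arrays gave 5 and quantile normalization 7 with cytokines in BRD0476 at 6 h. With BRD0476 alone the intensity trend called 2 at 6 h and 1 at 12 h, array weights 2 and 6, and the mean of probe sets 0 at 6 h; array weights called 19 with cytokines in BRD0476 at 12 h. With all arrays, 37.5% of the 40 genes were called with BRD0476 and cytokines at 12 h, against 26.9% of all genes. Without the 3 arrays that stand apart, 8 in place of 15 genes (4 of the alpha ring) were called, 20% against 23.9%. Without their 6 companions, 17 in place of 28 were called with BRD0476 and cytokines at 6 h and 8 at 12 h, 2 with cytokines in BRD0476 at 12 h, 5 in place of 9 for the change of the cytokine effect with time and 3 in place of 18 for that of the BRD0476 effect. The causes were not tested.

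Leaving out one array in turn gave 25 to 27 genes with cytokines in DMSO at 6 h (19S falls 6 to 9, alpha-ring rises 5 to 6) and 18 to 22 at 12 h, 6 to 7 and 5 to 9 with cytokines in BRD0476 at 6 and 12 h, 23 to 27 and 10 to 15 with BRD0476 and cytokines (alpha-ring falls at 12 h 6 to 7), 0 to 2 and 0 to 0 with BRD0476 alone, 13 to 23 and 7 to 8 for the interactions (19S rises 5 to 10, alpha-ring falls 4 to 5), and 6 to 11 and 11 to 20 for the changes of the cytokine and BRD0476 effects with time. Over all genes, fitting the compared arrays alone called 108 in place of 502 with BRD0476 alone at 6 h, 2379 in place of 3827 with BRD0476 and cytokines at 12 h and 97 in place of 238 between times. Array weights called 1123 in place of 502, 6304 in place of 3938 with cytokines in BRD0476 at 12 h, 1929 in place of 663 with BRD0476 alone at 12 h and 1545 in place of 238. Without the 6 companions 2132 in place of 3938 and, for the change of the BRD0476 effect, 1606 in place of 3559 were called.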
